A study of Mus musculus with 6 samples.

Results

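Transcripts of the cytochrome P450 family were examined in gastrocnemius muscle, the large calf muscle, of mice given a constitutively active aryl hydrocarbon receptor. Members were the genes whose symbol is Cyp followed by a number, a lower-case subfamily letter or letters and a closing number, with pseudogene names left out. This rule took 94 of the 49315 genes in the count table, in 16 families and 39 subfamilies. It leaves out Cyp51, Ptgis and Tbxas1, which are P450 enzymes with other kinds of symbol, and their values are given with the partner genes.

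The mice were male C57BL6J, 5 months old when AAV9, an adeno-associated virus, was injected into the muscle, and the muscle was taken 5 months after that. In the AAV9-HSA-CAAHR group (replicates 31, 34 and 36) the virus carried a mouse AHR without its ligand binding domain, and in the AAV9-HSA-GFP group (replicates 42, 43 and 46) it carried a green fluorescent protein. Both viruses used the human skeletal actin (HSA) promoter, which drives expression in myofibres and not in the other cells of the muscle, and every mouse received a virus. Uninjected muscle was not analysed here, so a difference made by the AAV9-HSA-GFP virus and one made by the AAV9-HSA-CAAHR virus cannot be told apart. RNA of the whole muscle was sequenced with 3 libraries per group of 43432994 to 58825752 counts, and each library was read as 1 mouse, as the study describes them.

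P450 enzymes are haem proteins that insert an oxygen atom into their substrate. Most sit in the endoplasmic reticulum and draw electrons from NADPH through P450 oxidoreductase (Por), and a smaller group sits in mitochondria and draws them through ferredoxin reductase (Fdxr) and ferredoxin (Fdx1). Liver holds the richest set, and skeletal muscle is not known as a main site of drug metabolism. AHR pairs with ARNT on DNA that holds the core letters GCGTG, and Cyp1a1, Cyp1a2 and Cyp1b1 are its classic target genes, while its repressor Ahrr is induced beside them.

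The promoter windows of the Cyp1 genes and of Cyp27a1 are shown because these include the 3 P450 genes that were higher in AAV9-HSA-CAAHR muscle. Each runs from 250 bases before to 50 bases after the RefSeq start on GRCm38.p6, 5′ to 3′ on the strand of the gene, with GCGTG or its reverse complement CACGC in capitals. The windows lie at chr9:57697363-57697662 on the plus strand for Cyp1a1, chr17:79715012-79715311 on the minus strand for Cyp1b1, chr9:57683606-57683905 on the minus strand for Cyp1a2 and chr1:74713285-74713584 on the plus strand for Cyp27a1.
Cyp1a1: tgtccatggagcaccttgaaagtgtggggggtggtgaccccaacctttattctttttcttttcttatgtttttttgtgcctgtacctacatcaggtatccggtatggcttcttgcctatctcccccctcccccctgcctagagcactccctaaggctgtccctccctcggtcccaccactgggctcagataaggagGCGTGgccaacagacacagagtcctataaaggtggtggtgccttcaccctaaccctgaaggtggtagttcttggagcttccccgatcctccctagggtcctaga
Cyp1b1: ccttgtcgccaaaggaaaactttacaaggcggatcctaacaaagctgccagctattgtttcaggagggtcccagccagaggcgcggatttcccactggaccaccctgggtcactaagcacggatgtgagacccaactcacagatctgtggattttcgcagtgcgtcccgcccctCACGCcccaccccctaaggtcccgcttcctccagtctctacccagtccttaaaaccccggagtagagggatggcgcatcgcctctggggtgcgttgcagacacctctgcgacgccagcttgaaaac
Cyp1a2: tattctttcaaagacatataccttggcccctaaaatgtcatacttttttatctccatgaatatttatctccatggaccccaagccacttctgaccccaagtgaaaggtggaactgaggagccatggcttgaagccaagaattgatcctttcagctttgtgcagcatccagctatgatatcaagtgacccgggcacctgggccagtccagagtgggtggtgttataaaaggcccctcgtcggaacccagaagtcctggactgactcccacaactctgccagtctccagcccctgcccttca
Cyp27a1: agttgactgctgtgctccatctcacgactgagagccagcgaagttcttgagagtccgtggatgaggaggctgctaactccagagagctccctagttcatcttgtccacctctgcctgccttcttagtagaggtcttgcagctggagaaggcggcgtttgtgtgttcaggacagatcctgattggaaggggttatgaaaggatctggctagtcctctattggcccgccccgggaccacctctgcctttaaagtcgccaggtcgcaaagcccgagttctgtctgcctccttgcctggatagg

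The Cyp1a1 and Cyp1b1 windows held 1 match each, which began 54 and 76 bases before the start. The Cyp1a2 and Cyp27a1 windows held none, nor did those of Cyp2e1, Cyp2f2 and Cyp4f18, the genes that were lower. GCGTG was found on either strand in 32.4% of 32851 promoter windows of all genes, and in 17 of the 83 windows (20.5%) that belonged to P450 genes. The longer form TNGCGTG, each match of which is also a GCGTG match, was present in 5.1% of all windows and in none of the Cyp1 windows. Sequence farther upstream, where response elements of Cyp1 genes are also known, was not analysed here.

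Most of the family had few or no counts in this muscle. No read was assigned to 38 of the 94 members in any of the 6 libraries, another 21 never passed 3 counts in a library, and 11 passed 3 counts but not the filter on low counts. The remaining 24 members, from 9 families, were tested with edgeR's quasi-likelihood test, with p-values adjusted over all 15847 genes tested. A floor of 3 counts corresponded to between 0.0492 and 0.0721 CPM (TMM-scaled counts per 1000000 counts) in these libraries, which covers counting error only. Only uniquely assigned reads were counted, so reads that fit several related genes equally well are missing. Cyp2c69, which had no count, shares 46.55% of its 50-base stretches with Cyp2c40. How far this lowered the counts of such members was not tested.

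Of the 24 tested members, 6 passed an adjusted p of 0.05, or 25%, against 7.60% of all genes tested. Cyp1a1, Cyp1b1 and Cyp27a1 were higher in AAV9-HSA-CAAHR muscle, and Cyp2f2, Cyp2e1 and Cyp4f18 were lower, against a background of 3.04% of genes called higher and 4.57% called lower. All but Cyp27a1 changed more than 2-fold, which is 5 members against 3.48% of all genes. The 3 higher members passed the threshold under every alternative scaling, filter and test and with any 1 library left out. The 3 lower members did not, and without AAV9-HSA-GFP replicate 46 none of them passed, which left 3 calls. Calls over the whole table also fell without that library, from 1205 to 604 genes.

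**Figure D1:**
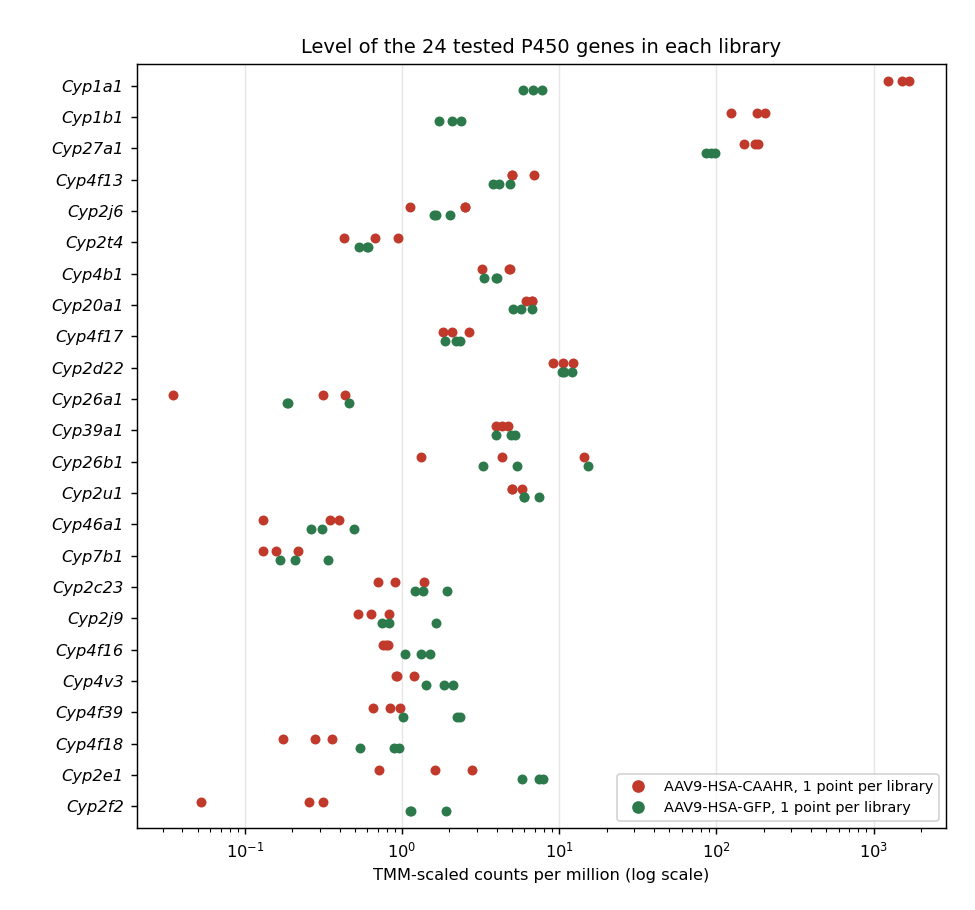
Level of the 24 tested P450 genes in each of 6 libraries, in TMM-scaled CPM on a log axis, with red points for AAV9-HSA-CAAHR and green points for AAV9-HSA-GFP, ordered by fitted change. The red points of Cyp1a1 sit between 1231 and 1680 CPM and the green ones between 5.85 and 7.74, while for most other genes the groups lie close together or overlap.

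Cyp1a1, which oxidises polycyclic aromatic hydrocarbons and is the standard readout of AHR activity, had 62247, 96008 and 92499 counts in AAV9-HSA-CAAHR replicates 31, 34 and 36. AAV9-HSA-GFP replicates 42, 43 and 46 had 327, 322 and 310 counts. The groups were far apart and each was tight. Scaled, this was 1476 ± 228 CPM (SD, n = 3) against 6.79 ± 0.943 CPM (SD, n = 3), a log2 fold change of 7.77 ± 0.20 (SE) with an edgeR adjusted p of 1.11e-07, the smallest p of any gene tested. The gene lies at chr9:57687928-57703824 on GRCm38 in GENCODE, which starts it upstream of the RefSeq start. Per kb of exon it ranked 52nd of 15814 genes in AAV9-HSA-CAAHR muscle and 6725th in AAV9-HSA-GFP muscle, and it took 0.130 to 0.168% of all counts in the former.

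Cyp1b1, which oxidises oestrogens and aromatic hydrocarbons and is expressed mainly outside the liver, had 6235, 11592 and 11026 counts against 83, 87 and 125. No library of one group came near the other. The means were 169 ± 41.1 and 2.06 ± 0.322 CPM (SD, n = 3 each), a log2 fold change of 6.36 ± 0.24 (SE) with an edgeR adjusted p of 4.22e-06. Cyp1b1 lies at chr17:79701537-79715061 and moved from rank 12286 to rank 1103 per kb of exon.

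Cyp1a2, the liver form of the Cyp1 family, shares its locus with Cyp1a1, and the annotated ends of both genes are 4.22 kb apart. It had 3, 21 and 22 counts in AAV9-HSA-CAAHR muscle and 1, 0 and 0 in AAV9-HSA-GFP muscle, too few to pass the filter. Summed over libraries, the ratio of the groups was 38.95, with a 95% counting interval of 6.65 to 1572. A fit with no filter called it (log2 fold change 4.84, edgeR adjusted p = 2.6e-05), as did DESeq2 (adjusted p = 0.00974). Where leaving out 1 library let it through the filter, it passed without AAV9-HSA-CAAHR replicate 31 (edgeR adjusted p = 0.0184) and did not pass when any 1 AAV9-HSA-GFP replicate was left out (0.0741 to 0.117). For every 10000 Cyp1a1 counts there were 0.482, 2.19 and 2.38 Cyp1a2 counts in replicates 31, 34 and 36. Of all 50-base stretches of Cyp1a2 transcripts 4.79% also occur in Cyp1a1, so whether some of the few Cyp1a2 counts were misplaced Cyp1a1 reads was not tested.

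Both large changes had the same order over the AAV9-HSA-CAAHR libraries as the Ahr transcript. Ahr, whose count includes any read of the viral AHR that maps to the gene, was at 9.97, 22.8 and 17.3 CPM in replicates 31, 34 and 36, and at 2.47, 2.55 and 1.87 CPM in replicates 42, 43 and 46. Replicate 31 was lowest and replicate 34 highest for Ahr, Cyp1a1 and Cyp1b1 alike. Cyp27a1 had the same order, as did the summed level of 8 general muscle fibre markers (154600, 206000 and 174900 CPM in replicates 31, 34 and 36). Within this group replicate 31 was lowest for 34.01% of all tested genes and replicate 34 highest for 35.31%. Whether the levels follow Ahr cannot be told from an order over 3 AAV9-HSA-CAAHR libraries. The Cyp1a1 level was 9.98, 8.28 and 8.39 times the Cyp1b1 level in these libraries, and 3.94, 3.70 and 2.48 times in replicates 42, 43 and 46, in CPM not divided by length.

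By fitted log2 fold change, Cyp1a1 ranked 3rd and Cyp1b1 7th of 15847 genes. Fitted above Cyp1a1 were Ccno (8.15) and Il19, whose place depends on how the fit treats 0 counts. Il19 had no count in AAV9-HSA-GFP muscle and 105 in all in AAV9-HSA-CAAHR muscle. This was 29.6-fold higher against a floor of 3 counts over the group, and the 95% counting interval of the ratio began at 23.7. Just below were Ahrr, at 7.69 ± 0.22 (SE), and the predicted gene Gm33045, at 6.67. None of the 6 tested genes within 100 kb of Cyp1a1 passed the threshold, and neither did Rmdn2, the only tested gene within 100 kb of Cyp1b1 (log2 fold change 0.27, edgeR adjusted p = 0.212).

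**Figure D2:**
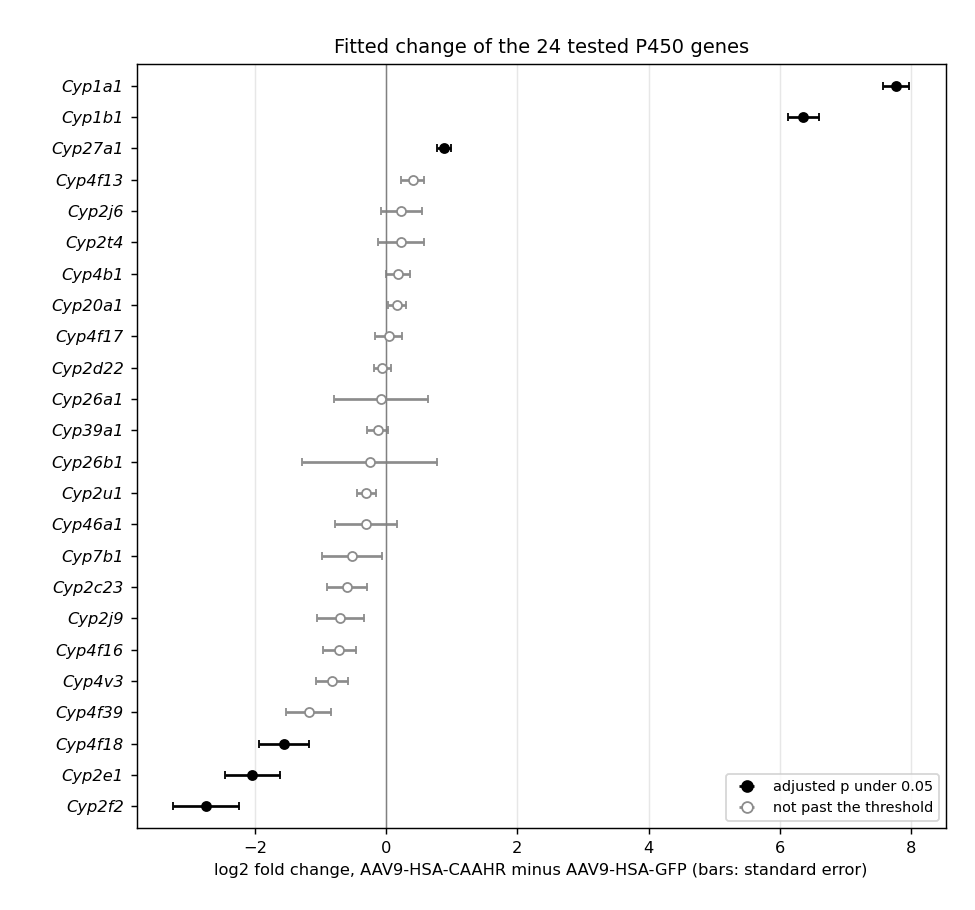
Fitted log2 fold change of the 24 tested P450 genes, AAV9-HSA-CAAHR minus AAV9-HSA-GFP, with bars of 1 standard error. Filled points passed an adjusted p of 0.05 in edgeR, and the Cyp1a1 (7.77) and Cyp1b1 (6.36) points stand apart from Cyp27a1 (0.89) and from the 3 filled points on the lower side.

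Cyp27a1, a mitochondrial sterol hydroxylase that acts on cholesterol in many tissues and in bile acid synthesis in liver, was the most abundant P450 transcript of AAV9-HSA-GFP muscle per kb of exon. It had 7569, 10462 and 10779 counts in AAV9-HSA-CAAHR replicates 31, 34 and 36, and 4481, 4052 and 4530 counts in AAV9-HSA-GFP replicates 42, 43 and 46. The lowest of the first group exceeded the highest of the second. It rose from 91.9 ± 5.98 to 169.9 ± 17.8 CPM (SD, n = 3 each), a log2 fold change of 0.89 ± 0.11 (SE) with an edgeR adjusted p of 0.00181. The range was 0.81 to 0.97 over the other scalings, filters and tests and with each library left out.

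Cyp27a1 lies at chr1:74713574-74737892, and no 50-base stretch of it occurs in another gene. Of its 4 tested neighbours within 100 kb, 2 passed the threshold, against 7.60% of all genes tested. Both were looked up after the values were seen. Stk36, a kinase 76.7 kb away, was higher by 2.08 ± 0.28 (SE) with an edgeR adjusted p of 0.00281. Ttll4, a tubulin glutamylase 9.84 kb away, was higher by 0.76 ± 0.14 (SE) with an edgeR adjusted p of 0.0110. Prkag3, a muscle subunit of AMP-activated protein kinase 1.03 kb away, had a log2 fold change of 0.61 and did not pass (edgeR adjusted p = 0.0866). Of the 14 tested neighbours of Cyp2e1, Cyp2f2 and Cyp4f18 none passed.

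The make-up of the family's transcripts differed between groups. Summed over all 94 members, P450 transcripts were at 1560, 2111 and 1944 CPM in AAV9-HSA-CAAHR replicates 31, 34 and 36, and at 164, 179 and 160.4 CPM in AAV9-HSA-GFP replicates 42, 43 and 46, a ratio of means of 11.1. Without the 3 Cyp1 genes the sums were 206, 228 and 246 CPM against 156, 169 and 152, a ratio of 1.42 with no overlap. Without Cyp27a1 as well, the remaining 90 members summed to 55.9, 44.4 and 68.8 CPM against 63.0, 72.0 and 66.7, a ratio of 0.838 with overlap. Divided by exon length, Cyp1a1 made up 80.4, 81.9 and 80.4% of P450 transcripts in AAV9-HSA-CAAHR muscle and 3.67, 3.97 and 3.31% in AAV9-HSA-GFP muscle. The share of Cyp27a1 was 12.54, 11.45 and 12.02% against 64.5, 64.0 and 62.1%, a smaller share although its own level was higher. Among P450 transcripts other than Cyp1, it made up 79.7 to 85.7% against 64.6 to 67.2%.

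**Figure D3:**
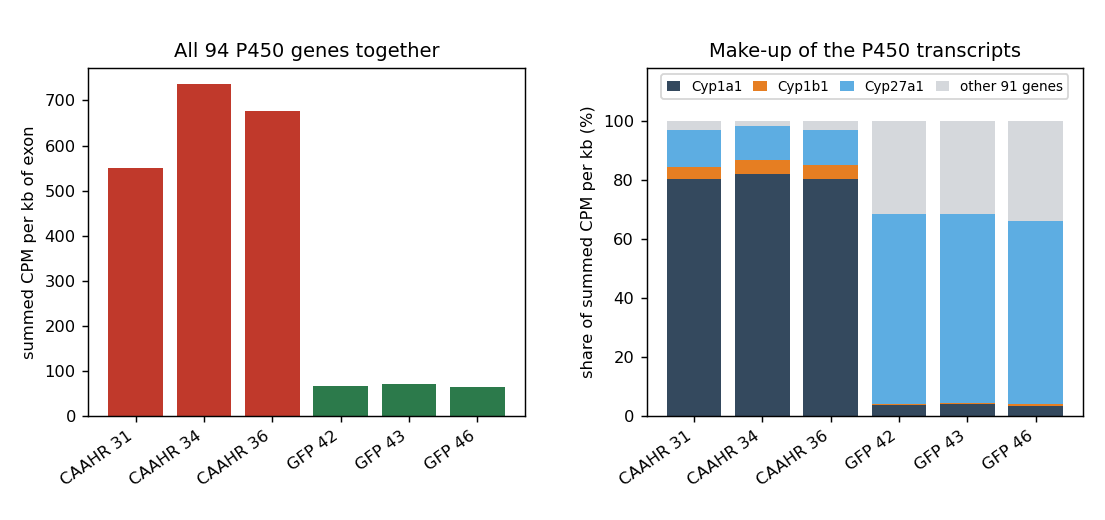
Left, summed level of all 94 P450 genes per library in CPM per kb of exon; right, share of that sum held by Cyp1a1, Cyp1b1, Cyp27a1 and the other 91 genes. Cyp1a1 holds 80.4 to 81.9% in the 3 AAV9-HSA-CAAHR libraries, and Cyp27a1 holds 62.1 to 64.5% in the 3 AAV9-HSA-GFP libraries.

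Each of the 3 lower members is best known from cells other than the myofibre. In RNA of whole muscle, fewer cells of a type and less RNA per cell cannot be told apart. Cyp2e1, which oxidises ethanol and small solvents, had 82, 41 and 170 counts in AAV9-HSA-CAAHR replicates 31, 34 and 36, and 379, 242 and 396 in AAV9-HSA-GFP replicates 42, 43 and 46. The groups did not overlap. The means were 1.71 ± 1.04 and 7.05 ± 1.084 CPM (SD, n = 3 each), a log2 fold change of −2.04 ± 0.42 (SE) with an edgeR adjusted p of 0.0317. The call was lost without AAV9-HSA-CAAHR replicate 31 or when any 1 AAV9-HSA-GFP replicate was left out (edgeR adjusted p = 0.0784 to 0.112), with log2 fold changes of −1.95 to −2.16.

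Cyp2e1 is also expressed in fat. Of 9 adipocyte markers 3 were called lower (Retn, Cfd and Plin1) and none higher, against 4.57% and 3.04% of all genes tested. Fabp4 (−0.03), Lipe (0.17) and Pparg (0.02) had log2 fold changes near 0. Adipoq (−2.09), Cidec (−2.00) and Lep (−1.65) did not pass. The summed level of the 9 markers was 157, 109.9 and 178 CPM in AAV9-HSA-CAAHR replicates 31, 34 and 36, and 262, 131 and 223 CPM in AAV9-HSA-GFP replicates 42, 43 and 46. Most of that sum was Fabp4, which endothelial cells share and which ran from 72.6 to 132 CPM. Adipoq, a hormone made by fat cells, was at 2.87, 0.560 and 4.53 CPM against 19.0, 4.09 and 10.9. In both groups Cyp2e1 had the order of the adipocyte sum and of Adipoq. The 5 Schwann cell markers, none called, had that order too. They summed to 71.0, 45.0 and 73.2 CPM in replicates 31, 34 and 36 and to 121.9, 73.2 and 106.1 CPM in replicates 42, 43 and 46. Cfd and Retn ordered the AAV9-HSA-GFP libraries differently. Whether Cyp2e1 follows any of these cannot be told from an order over 3 libraries per group. The called markers did not overlap between groups. Cfd was at 3.56, 1.21 and 5.54 CPM in replicates 31, 34 and 36 against 29.2, 19.0 and 37.1 CPM in replicates 42, 43 and 46, and Plin1 was at 1.74, 0.560 and 2.20 against 14.4, 5.36 and 10.9. Whether fat tissue in the samples had a part in the Cyp2e1 difference was not tested.

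Cyp2f2, which activates naphthalene in the airway, had 13, 3 and 19 counts against 55, 47 and 101. Its highest AAV9-HSA-CAAHR library was below its lowest AAV9-HSA-GFP library, at levels under 2 CPM throughout. The means were 0.207 ± 0.137 and 1.39 ± 0.446 CPM (SD, n = 3 each). The log2 fold change was −2.74 ± 0.50 (SE) with an edgeR adjusted p of 0.0129. Without AAV9-HSA-GFP replicate 46 it was −2.44 and did not pass (edgeR adjusted p = 0.0591). It shares 9.0% of its 50-base stretches with the antisense gene Gm15883, which had no more than 4 counts in a library.

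Cyp4f18, which inactivates leukotriene B in neutrophils, had 18, 10 and 17 counts against 26, 40 and 47. These counts are few, though the groups did not overlap. The means were 0.270 ± 0.0908 and 0.796 ± 0.226 CPM (SD, n = 3 each). The log2 fold change was −1.56 ± 0.39 (SE) with an edgeR adjusted p of 0.0400. Leaving out AAV9-HSA-GFP replicate 42 kept the call, and leaving out any other library lost it (edgeR adjusted p = 0.0675 to 0.127), as did limma-voom (adjusted p = 0.0509). Cyp4f18 overlaps exons of Zfp961 on the opposite strand, whose log2 fold change was 0.25.

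Levels of leukocyte markers were set beside Cyp4f18. The 6 macrophage markers, none of which passed the threshold, summed to 17.5, 10.47 and 19.5 CPM in replicates 31, 34 and 36, and to 19.2, 32.97 and 25.2 CPM in replicates 42, 43 and 46. The 6 B and plasma cell markers summed to 1.503, 1.785 and 1.788 CPM against 6.67, 39.9 and 11.6. Of these markers 3 were called lower, against 4.57% of all genes tested. The 5 T cell markers summed to between 1.099 and 1.54 CPM against 2.07 to 6.35. Neutrophil markers were not listed, and the part of these cells in the Cyp4f18 difference was not tested. The 5 hepatocyte markers summed to 0.115 to 0.316 CPM against 0.264 to 0.718 CPM. Cyp2f2 itself was at 0.257, 0.0525 and 0.312 CPM against 1.14, 1.13 and 1.91 CPM. Of the 5 markers only Alb was tested, at 0.0989, 0.158 and 0.0492 CPM against 0.394, 0.216 and 0.529. Alb did not pass (log2 fold change −1.90, edgeR adjusted p = 0.0614). The untested Ttr had means of 0.094 and 0.095 CPM, and Fgb of 0.041 and 0.046 CPM. Apoa1 and Serpina1a never passed 2 counts in a library.

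**Figure D4:**
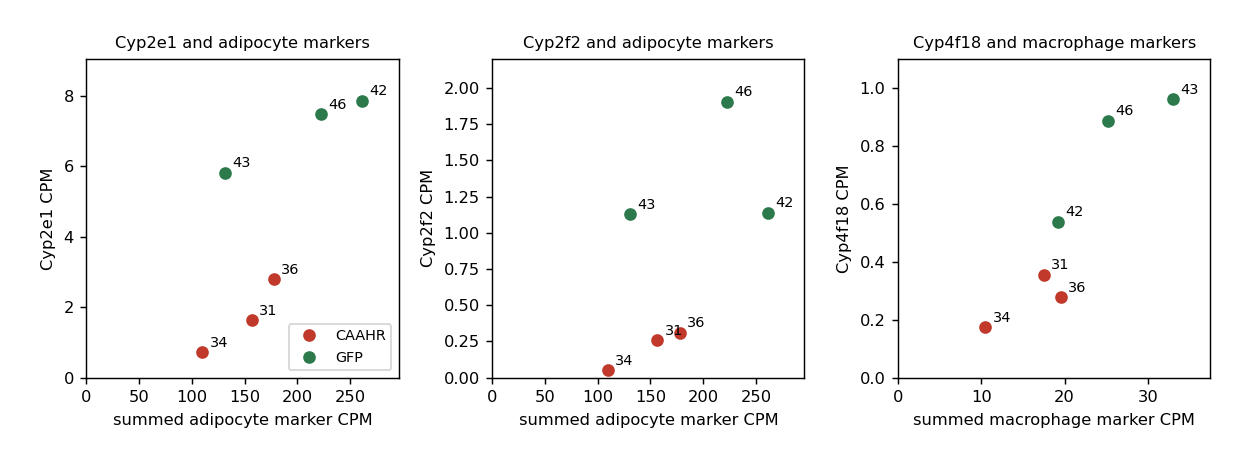
Level of Cyp2e1 and Cyp2f2 against the summed adipocyte markers, and of Cyp4f18 against the summed macrophage markers, all in CPM, with 1 point per library labelled by its replicate number (red, AAV9-HSA-CAAHR; green, AAV9-HSA-GFP). The summed adipocyte level overlaps between groups (109.9 to 178 against 131 to 262 CPM) and is mostly Fabp4, and the green points lie above the red ones in Cyp2e1, from 5.82 to 7.85 CPM.

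One AAV9-HSA-CAAHR library stood apart in this family. Replicate 34 had the lowest level of its group for 15 of the 24 tested members (62.5%), against 36.03% of all tested genes. It was also lowest in the summed markers of fibroblasts (289 CPM, against 474 and 527 in the other two), smooth muscle (57.6 against 116 and 138) and endothelium (163 against 226 and 238), and highest in those of muscle fibres. Slow-fibre markers summed to 642 CPM in it, against 2630 and 2883 CPM. In the AAV9-HSA-GFP libraries they summed to 207 to 494 CPM, and all 9 had log2 fold changes above 0, with a median of 2.88, though none passed the threshold. Of 8 general fibre markers 3 were called lower, against 4.57% of all genes tested (log2 fold changes of −0.74 for Acta1, −0.73 for Ckm and −0.69 for Tnnt3). The part of this fibre difference in the P450 values, Cyp27a1 and Por included, was not tested. Without replicate 34, 5 members were called, and Cyp4f18 was the one lost. Calls over the whole table rose from 1205 to 1727 genes without it.

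**Figure D5:**
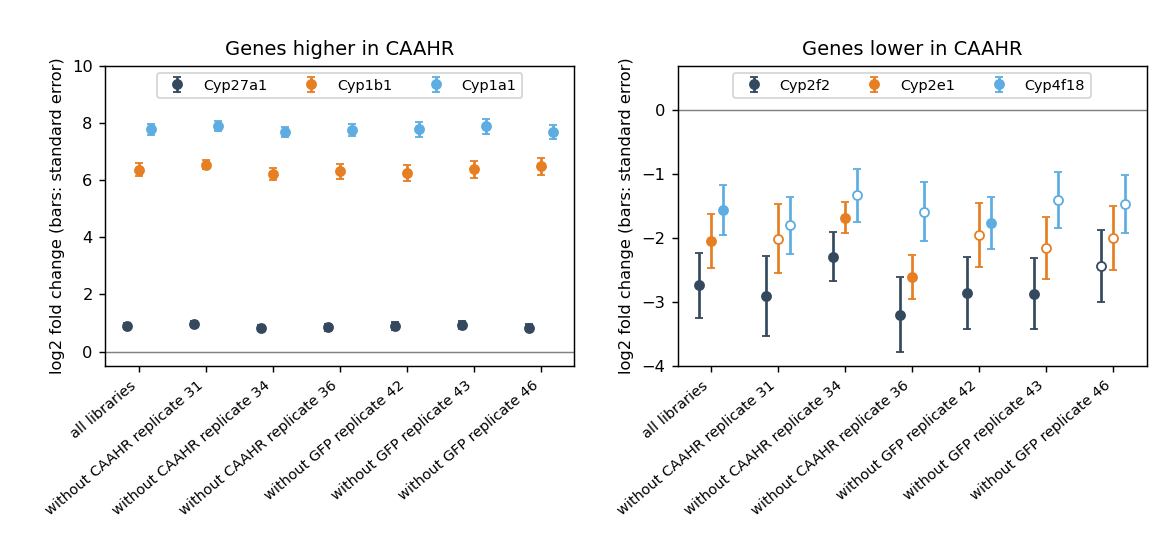
Log2 fold change of the 6 called P450 genes with all 6 libraries and with each library left out, with bars of 1 standard error. Filled points passed an adjusted p of 0.05 in edgeR and open points did not, so that Cyp1a1, Cyp1b1 and Cyp27a1 are filled throughout, while all 3 genes on the right are open without GFP replicate 46.

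The 18 tested members that did not pass were spread over 7 families. Over all 24, 15 log2 fold changes were below 0 and 9 above, the median was −0.19 against 0.01 for all tested genes, and the median absolute change was 0.46 against 0.21. The groups did not overlap for 11 of the 24 (45.8%), as for 29.9% of all tested genes, and 10 had an unadjusted p under 0.05 (41.7%) against 23.9%. These counts include the 6 called members. Among the 18 others, 5 did not overlap and 4 had an unadjusted p under 0.05 in edgeR.

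Of the Cyp4 family, whose members mostly hydroxylate the end of fatty acids and eicosanoids, 7 members were tested and only Cyp4f18 was called. Cyp4f39, a hydroxylase of very long fatty acids in skin, was at 0.969, 0.840 and 0.656 CPM in replicates 31, 34 and 36 and at 1.01, 2.33 and 2.25 CPM in replicates 42, 43 and 46. Its log2 fold change was −1.18 ± 0.34 (SE), past the threshold with no filter, with DESeq2 and without AAV9-HSA-GFP replicate 42, but not here (edgeR adjusted p = 0.0634). Cyp4v3 followed at −0.82 ± 0.24 (SE) with an edgeR adjusted p of 0.0711. Cyp4f16, at −0.72, shares 16.3% of its 50-base stretches with Cyp4f37. Within the same subfamily Cyp4f13 had a value of 0.40 and Cyp4f17 of 0.04, and neither passed. Cyp4b1, among the 8 most abundant members per kb, was at 4.27 ± 0.912 and 3.77 ± 0.371 CPM (SD, n = 3 each), with a log2 fold change of 0.18 ± 0.19 (SE; edgeR adjusted p = 0.621).

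The Cyp2 family, the largest with 49 members, had 8 tested. Besides Cyp2e1 and Cyp2f2 these were Cyp2d22, Cyp2u1, Cyp2j6, Cyp2j9, Cyp2t4 and Cyp2c23, with log2 fold changes of −0.70 to 0.23. Cyp2d22 was the most abundant of them, at 10.6 ± 1.63 and 11.1 ± 0.948 CPM (SD, n = 3 each), a log2 fold change of −0.06 ± 0.14 (SE; edgeR adjusted p = 0.855) whose sign turned under scaling by library size. Cyp2u1, which oxidises arachidonic acid, was at 5.83, 4.99 and 5.00 CPM against 5.99, 6.01 and 7.46, which did not overlap but did not pass (edgeR adjusted p = 0.248). Cyp2c23 and the Cyp2j genes, which form epoxides of arachidonic acid, had differences of −0.59, 0.23 (Cyp2j6) and −0.70 (Cyp2j9).

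Among the tested P450 enzymes of sterols and retinoids, only Cyp27a1 was called. The oxysterol hydroxylases Cyp39a1 and Cyp7b1 had log2 fold changes of −0.13 and −0.52, and the brain cholesterol hydroxylase Cyp46a1 of −0.31. Cyp39a1 was at 4.33 ± 0.357 and 4.71 ± 0.682 CPM (SD, n = 3 each), with an SE of 0.16 on its log2 change (edgeR adjusted p = 0.695). Cyp20a1, an orphan enzyme without a settled substrate, was at 6.53 ± 0.315 and 5.82 ± 0.830 CPM (SD, n = 3 each), a log2 fold change of 0.17 ± 0.14 (SE; edgeR adjusted p = 0.529). Cyp26b1, which degrades retinoic acid, varied widely within both groups. It was at 4.29, 1.31 and 14.4 CPM in replicates 31, 34 and 36 and at 3.29, 15.3 and 5.40 CPM in replicates 42, 43 and 46, so that its log2 fold change of −0.25 had an SE of 1.03. With that spread, a 2-fold difference would be smaller than 1 SE. Cyp26a1 was at −0.08 ± 0.72 (SE).

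None of the 4 Cyp2a, 5 Cyp2b, 7 Cyp3a and 5 Cyp4a members reached the test, and 12 of the 15 Cyp2c members had no count in any library, while Cyp2c23 was tested. Cyp2d, Cyp2j and Cyp4f also mixed members without a count and tested members. The Cyp2a, Cyp2b, Cyp2c, Cyp3a and Cyp4a genes are among the main drug- and fatty acid-metabolising sets of liver. Cyp24a1, which degrades vitamin D, Cyp7a1, the rate-limiting enzyme of bile acid synthesis, and both Cyp11b genes had no count, which allows a level of up to 0.0492 to 0.0721 CPM in a library. Among members that were not tested, Cyp1a2, Cyp27b1 and Cyp2s1 reached 10 counts in a library. Cyp2s1 had 5, 5 and 20 counts in replicates 31, 34 and 36 and 3, 9 and 9 in replicates 42, 43 and 46. Cyp27b1, which activates vitamin D, had 4, 4 and 4 against 9, 3 and 13. Both overlapped between groups.

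P450 enzymes need electrons and haem. Of 22 tested genes for their redox partners and haem handling, 1 was higher and 1 lower. Of all genes tested, 3.04% were called higher and 4.57% lower. Por rose from 23.7, 23.0 and 20.2 CPM in replicates 42, 43 and 46 to 29.0, 33.4 and 39.3 CPM in replicates 31, 34 and 36, a log2 fold change of 0.60 ± 0.12 (SE) with an edgeR adjusted p of 0.0199. Every AAV9-HSA-CAAHR library was above every AAV9-HSA-GFP library. Cyb5b, a cytochrome of the outer mitochondrial membrane, fell by 0.40 on the log2 scale (edgeR adjusted p = 0.0387). Fdx1 and Fdxr, which serve Cyp27a1, had values of 0.06 ± 0.15 and −0.06 ± 0.19 (SE). Alas1, which starts haem synthesis, was at −0.48, Hmox1, which breaks haem down, at −0.41, and Cyb5a at −0.28, none of which passed (edgeR adjusted p = 0.0918 to 0.152). Cyb5r3, a reductase of the Cyb5 cytochromes named after its values were seen, was nearest the threshold at 0.41 ± 0.11 (SE; edgeR adjusted p = 0.0526). Its groups did not overlap, and it passed with library size scaling, no filter, DESeq2 or limma-voom.

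Of 22 tested regulators of P450 genes, 4 were higher and 1 lower, against 3.04% and 4.57% of all genes tested. The higher ones were Ahrr and Ahr (2.87 ± 0.31 SE, edgeR adjusted p = 0.00229), Tiparp, an AHR target that represses AHR (2.12 ± 0.15 SE, edgeR adjusted p = 0.000157), and the retinoid receptor Rxrg (0.66 ± 0.15 SE, edgeR adjusted p = 0.0282). Vdr, the vitamin D receptor that induces Cyp24a1, was lower, at 0.0593, 0.0350 and 0.0820 CPM in replicates 31, 34 and 36 against 0.580, 0.721 and 0.529 in replicates 42, 43 and 46. Its AAV9-HSA-CAAHR values were near the floor of 3 counts (log2 fold change −3.31, edgeR adjusted p = 0.00281).

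Among the tested genes of sterol synthesis, Tm7sf2, a sterol reductase, was higher (0.75 ± 0.14 SE, edgeR adjusted p = 0.0144). Cyp51, the P450 of that pathway, was at 6.17 ± 0.403 and 4.85 ± 0.232 CPM (SD, n = 3 each), which did not overlap but did not pass (log2 fold change 0.35, edgeR adjusted p = 0.137). Of 19 tested partner genes of vitamin A, vitamin D and eicosanoids, none was higher and 3 were lower, against 4.57% of all genes called lower. These were Ptgs2, which makes prostaglandin H (−4.12 ± 0.32 SE, edgeR adjusted p = 0.000222), the retinol carrier Rbp4, which fat cells also make (−1.80 ± 0.45 SE, edgeR adjusted p = 0.0455), and the retinal dehydrogenase Aldh1a1 (−0.51 ± 0.13 SE, edgeR adjusted p = 0.0473). The prostaglandin-using P450s Ptgis and Tbxas1 had log2 fold changes of −0.07 ± 0.56 and −0.74 ± 0.34 (SE), and neither passed.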

How the data were processed

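RNA of gastrocnemius muscle from 6 mice was sequenced. The authors deposited whole-number counts per gene, not normalised and not pooled: poly(A)-selected reads were trimmed with Trimmomatic 0.36, aligned to GRCm38 with STAR 2.5.2b and summed by featureCounts over exons, uniquely assigned reads only. Whether counting used strand is not given in the sources used here, so genes that overlap on opposite strands are uncertain. No column of a sample was left unused (0).

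Counts were filtered with filterByExpr (minimum count 10), scaled by TMM and tested with edgeR 4.0.16 in R 4.3.3 (robust quasi-likelihood F test, Benjamini-Hochberg adjustment, threshold 0.05). The SE of an edgeR log2 fold change was derived from the test, as its absolute value divided by the square root of F. Alternatives used other scalings and filters, DESeq2 1.42.0, limma 3.58.1 voom and each library left out. Positions and exon lengths came from GENCODE mouse release 21, which held all 94 members. RefSeq promoter windows were found for 73 members. No pair of replicates agreed within counting error, as repeats of 1 library would (chi-square over its degrees of freedom was 21.6 or more).

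Members and lists were chosen with earlier results of these data known. Called members, the Cyp1 genes and the 8 members highest per kb are given with full statistics, others by family; of partner genes, called ones and Por, Cyb5a, Fdx1, Fdxr, Alas1, Hmox1 and Cyp51; and the 5 genes of largest fold change. Genes near a called member and Cyb5r3 were named after their values were seen. One result among the genes of sterol synthesis is not reported here.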

Additional observations from a re-analysis of the deposited data

How the results depend on the processing

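No paired analysis was possible because no replicate number occurs in both groups. Called P450 genes numbered 6 with all libraries, 5 to 9 under other scalings, filters and tests, and 3 to 6 with a library left out; those over 2-fold numbered 5, 4 to 7 and 2 to 5. Without a filter on low counts Cyp1a2, Cyp4v3 and Cyp4f39 were added, and with DESeq2 Cyp1a2 and Cyp4f39; Cyp2f2 was not tested when every library needed 10 counts. Partner genes called numbered 12, but 24 without a filter, 20 with DESeq2 and 5 to 15 with a library left out (5 without AAV9-HSA-CAAHR replicate 36, 6 without AAV9-HSA-GFP replicate 46). The summed P450 level ratio of 11.1 was 1.42 without the Cyp1 genes, 0.838 without these and Cyp27a1 (chosen after seeing the data) and 10.4 to 12.1 with a library left out. Signs turned only for uncalled genes: with library size only, Cyp26a1 (0.0195), Cyp2d22 (0.029) and Fdxr (0.0237); with limma-voom, Cyp2d22 (0.0192); with upper quartile scaling, Cyp4f17 (−0.0332) and Fdx1 (−0.0085). With a library left out, log2 fold changes ran from −0.64 to 0.46 for Cyp26a1, −1.52 to 0.62 for Cyp26b1, −0.18 to 0.039 for Cyp2d22, −0.092 to 0.48 for Cyp2t4, −0.58 to 0.045 for Cyp46a1, −0.14 to 0.15 for Cyp4f17, −0.076 to 0.20 for Fdx1 and −0.19 to 0.056 for Fdxr. The cause was not tested. Depth limits the members under 1 CPM.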
